A study of Homo sapiens with 4 samples.

Results

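The E2F, RB and MYB cell cycle regulators decide when a dividing cell starts to copy its DNA and when it turns on the genes of mitosis. The set held 10 genes chosen by name, E2F1, E2F2, E2F3, E2F7, E2F8, RB1, RBL1, MYBL1, MYBL2 and LIN54, and a gene was taken as measured where a row of the array carried its symbol and no other. Of the 10 members, 9 were measured among 14232 genes in all, each by 1 row, and MYBL1 was not analysed here. TE-1, an established cell line of esophageal squamous cell carcinoma (ESCC), was transfected with an siRNA against FOXM1 (TE-1-siFOXM1) or with a scrambled control siRNA (TE-1-SCR), both with a lipid reagent. Each of the 2 groups had 2 replicates, and total RNA of each was put on an Affymetrix array. Cells were transfected in repeated rounds and collected the day after the last one, and the data describe 1 cell line and 1 siRNA reagent. The labels and the methods do not say if a replicate was a culture of its own, so the spread behind each p-value may be technical.

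E2F proteins bind the promoters of genes for DNA replication. The pocket proteins RB1 and RBL1 restrain transcription through some of them until cyclin-dependent kinases phosphorylate the pocket proteins. E2F1, E2F2 and E2F3 activate transcription, whereas E2F7 and E2F8 are atypical members that repress it. MYBL2, also called B-MYB, joins the MuvB complex, whose subunit LIN54 contacts DNA, and this complex brings FOXM1 to the promoters of mitotic genes. The comparison asks whether their transcript levels differed when FOXM1 was silenced.

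FOXM1 itself was lower in TE-1-siFOXM1 cells on both arrays. Its log2 expression was 8.28 and 8.06 in TE-1-siFOXM1 cells and 10.55 and 9.75 in TE-1-SCR cells, which left 25.3% of the control level. The log2 difference was -1.98 with a standard error of 0.30 (limma, adjusted p = 1 by Benjamini-Hochberg over all probe sets). The groups did not overlap, and the exact permutation test of 2 arrays against 2 gave a two-sided p of 0.333, the smallest this design allows. Of 22011 probe sets, 0 (0%) passed an adjusted p of 0.05 in limma, while 680 (3.09%) had an unadjusted p under 0.05. The array medians lay between 7.54 and 7.63, and the arrays correlated with each other at 0.984 to 0.992 across probe sets. Of 10 markers of squamous epithelium, 6 were measured. Of these, 4 lay at or above the median level of all probe sets, namely KRT14, CDH1, DSG3 and PKP1. That level was reached by 7505 of all 14232 genes. Of 10 measured markers of non-epithelial cells 2 reached it, CD68 and COL1A1. CD68 was between 11.08 and 11.30 on the 4 arrays, above every measured squamous marker. The leukocyte marker PTPRC, the lowest of the 10, was between 3.50 and 3.74.

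Silenced and control cells were less than 1.5-fold apart in each of the 9 measured members, so 0 of 9 met this criterion of the study, which 1.01% of all 14232 genes met. In RNA of whole cultures, fewer cells in a phase of the cycle and less RNA per cell cannot be told apart. None passed limma after adjustment (adjusted p = 1 for each), and none had an unadjusted p under 0.05 (the lowest was 0.169, for RBL1). The differences ran from -0.09 for E2F2 to 0.30 for RBL1 on the log2 scale, with a median of 0.12, beside a median of 0.0033 over all genes. Of the 9 members, 6 had a mean above that of the control and 3 a mean below it, against 51.0% and 49.0% of all genes. The standard errors of the members were between 0.14 and 0.23, and the 95% interval from limma included 0 for all 9. For 5 members, E2F1, E2F2, E2F3, MYBL2 and LIN54, the interval lay wholly inside a 1.5-fold change in either direction (0.58 on the log2 scale), so a change of 1.5-fold or more lay outside it. For the other 4, E2F7, E2F8, RB1 and RBL1, the interval reached beyond a 1.5-fold increase and not beyond a 1.5-fold decrease.

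**Figure D1:**
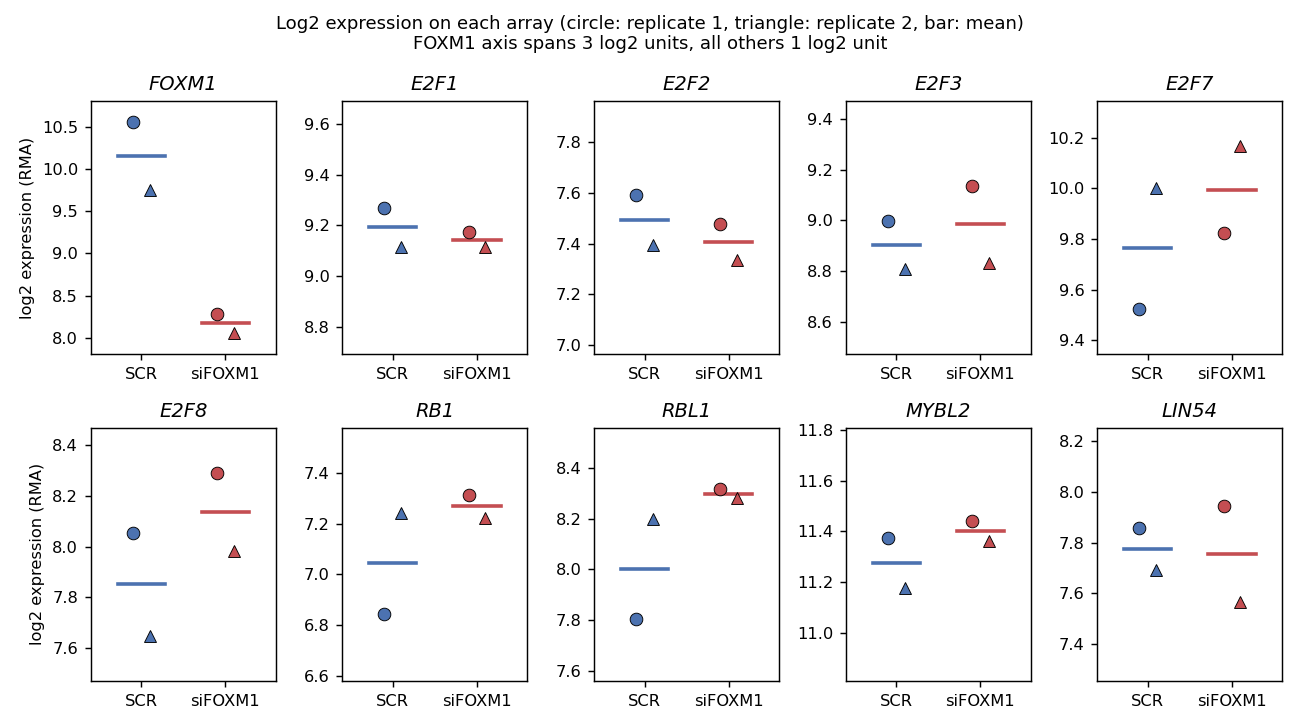
Log2 expression (RMA) of FOXM1 and the 9 measured members on each of the 4 arrays, with SCR in blue and siFOXM1 in red, replicate 1 as a circle, replicate 2 as a triangle and the group mean as a bar. The FOXM1 groups are separate on an axis of 3 log2 units, while on axes of 1 log2 unit only RBL1 among the members has both siFOXM1 values above both SCR values.

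**Figure D2:**
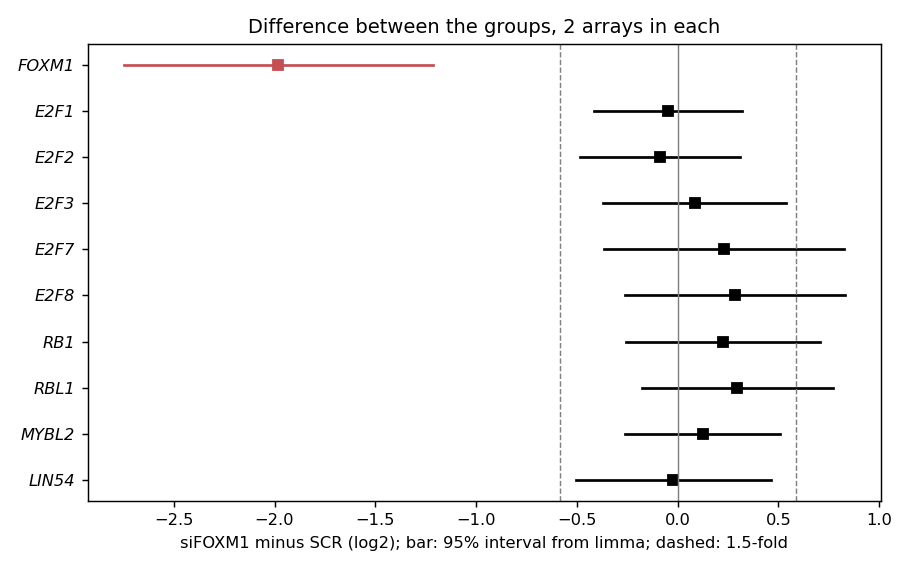
Difference of the group means (siFOXM1 minus SCR, log2) for FOXM1 and the 9 members, as squares, with the 95% interval from limma as bars and a 1.5-fold change as dashed lines. The intervals of all 9 members include 0, and those of E2F7, E2F8, RB1 and RBL1 cross the upper dashed line.

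None of the activators differed from its control by as much as 0.10 on the log2 scale. E2F1, which drives entry into S phase, had values of 9.17 and 9.11 in TE-1-siFOXM1 cells and 9.27 and 9.12 in TE-1-SCR cells. The groups overlapped, and the 4 arrays spanned 0.16 log2 units in all, the narrowest range of any member. Its difference was -0.05 (95% interval -0.42 to 0.32), larger in size than that of 27.0% of all genes. E2F2 was measured at 7.48 and 7.34 after FOXM1 silencing and at 7.59 and 7.39 in the control, with an overlap and a difference of -0.09 (-0.48 to 0.31). E2F3, another activator bound by RB1, stood at 9.14 and 8.83 against 8.995 and 8.81 in the control. Its difference was 0.08 (-0.37 to 0.54), and both its high values came from the replicates numbered 1.

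The 3 activator genes carry a shared pair of E2F motifs just upstream of the first base of the gene, and the stretches are shown because E2F factors are known to act on their own genes. The stretches are the last 60 bases before the start of the gene in RefSeq (GRCh38.p14), 5′ to 3′ on the strand of the gene. RefSeq gives E2F3 another start, 1735 bases inside the gene, and its window holds 0 matches to the motif. The stretches lie at chr20:33686386-33686445 (minus strand) for E2F1, chr1:23531234-23531293 (minus strand) for E2F2 and chr6:20401819-20401878 (plus strand) for E2F3, and capitals mark every match to the E2F motif on either strand.
E2F1: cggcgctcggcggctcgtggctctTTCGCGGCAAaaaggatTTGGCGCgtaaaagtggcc
E2F2: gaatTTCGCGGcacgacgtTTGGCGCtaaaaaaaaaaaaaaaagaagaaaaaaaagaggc
E2F3: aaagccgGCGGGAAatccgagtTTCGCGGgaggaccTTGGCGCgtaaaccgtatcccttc
In each stretch TTCGCGG is followed by TTGGCGC, with 17, 15 and 14 bases between their first letters in E2F1, E2F2 and E2F3. In E2F1 the first run of capitals is a pair of overlapping matches, 1 on each strand. This pair, in this order on the strand of the gene and with at most 20 bases between the 2 motifs, was looked for after the sequences had been seen, and it occurred in 8 of 35116 promoter windows (0.0228%), and E2F1, E2F2 and E2F3 account for 3 of the 8.

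The atypical repressors E2F7 and E2F8 had means above their controls, and so did each silenced array against the control array of the same number. In all, 7 of the 9 members had the same sign within both replicate numbers (77.8%), against 57.0% of all genes. E2F8 was at 8.29 and 7.98 in TE-1-siFOXM1 cells and at 8.06 and 7.65 in TE-1-SCR cells. Within a replicate number the silenced cells were the higher ones, by 0.24 among the replicates numbered 1 and 0.33 among those numbered 2, but the groups overlapped because each replicate 1 exceeded its replicate 2. The difference of the means was 0.29 (95% interval -0.26 to 0.83), larger in size than that of 91.2% of all genes. E2F7 was at 9.82 and 10.17 after silencing and at 9.53 and 10.00 in the control. Here the replicates numbered 2 were the high ones in both groups, the groups overlapped again, and the difference was 0.23 (-0.36 to 0.83), or 0.30 and 0.17 within the replicates numbered 1 and 2. Without SCR replicate 1 the difference of E2F7 was -0.0066 and that of E2F8 was 0.49.

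E2F7 had 2 matches to the E2F motif farther from its start, on the opposite strand. The 60 bases from position -180 to -121 (chr12:77065690-77065749, minus strand, GRCh38.p14) are shown with the matches in capitals, for comparison with the pair in the activator genes.
E2F7: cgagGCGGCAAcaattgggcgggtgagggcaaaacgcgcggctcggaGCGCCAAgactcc

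Of the pocket proteins, RBL1 had the largest difference of the 9 members and was the only one whose groups did not overlap. RBL1 encodes the RB relative that represses cell cycle genes together with other E2F factors. Its values were 8.31 and 8.28 in TE-1-siFOXM1 cells and 7.80 and 8.20 in TE-1-SCR cells. The silenced pair lay within 0.04 of each other, while SCR replicate 1 stood 0.40 below SCR replicate 2. The difference was 0.30, or 1.23-fold (95% interval from limma -0.18 to 0.77, standard error 0.18, adjusted p = 1). Without SCR replicate 1 it was 0.10, and within the replicates numbered 1 and 2 it was 0.51 and 0.08. Of the 9 members 1 thus lay apart from its control, against 27.3% of all genes, which is no excess over the background. By direction, 13.5% of all genes lay apart and above their controls and 13.8% lay apart and below.

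RB1, the retinoblastoma tumor suppressor, showed the same low control array. It was at 7.31 and 7.22 in TE-1-siFOXM1 cells and at 6.84 and 7.24 in TE-1-SCR cells, so that SCR replicate 1 was the low value and the other 3 arrays spanned 0.09. The difference was 0.23 (standard error 0.19, 95% interval -0.26 to 0.71), but 0.026 without SCR replicate 1. Within the replicates numbered 1 it was 0.47 and within those numbered 2 it was -0.019. RB1 and E2F2 lay below the median level of all probe sets (7.58), and the other 7 members above it.

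**Figure D3:**
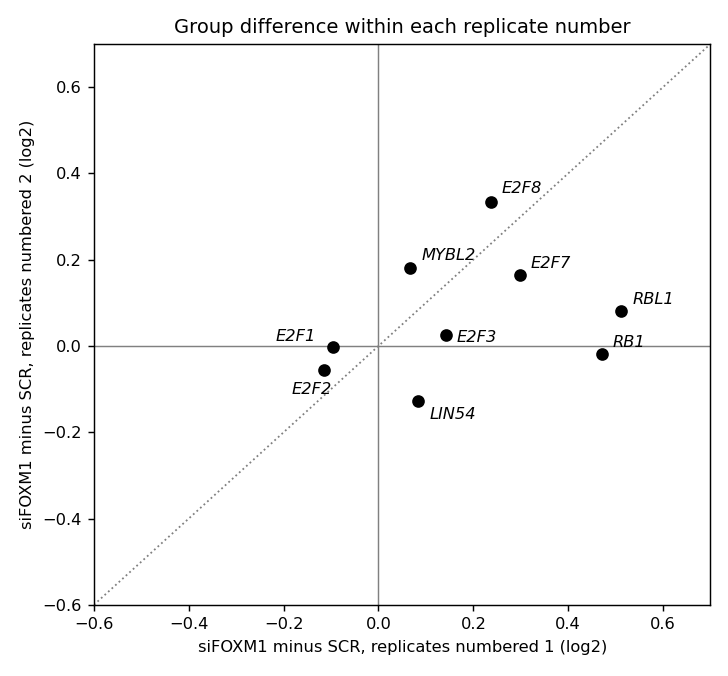
Difference siFOXM1 minus SCR (log2) within the replicates numbered 1 (horizontal axis) and within those numbered 2 (vertical axis), 1 point per member and 1 array against 1 on each axis. E2F7 and E2F8 lie near the dotted line of equal differences, while RB1 and RBL1 lie at 0.47 and 0.51 on the horizontal axis and near 0 on the vertical one.

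The promoter of RBL1 holds 2 matches to the E2F motif within its last 25 bases. The stretch is the 60 bases before the start (chr20:37095998-37096057, minus strand, GRCh38.p14), set beside the same stretch of MYBL2 (chr20:43667054-43667113, plus strand), since these members had the largest difference and the partner role with FOXM1.
RBL1: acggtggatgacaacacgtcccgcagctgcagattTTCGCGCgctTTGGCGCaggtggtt
MYBL2: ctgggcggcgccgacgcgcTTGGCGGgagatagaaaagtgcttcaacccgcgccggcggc

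MYBL2, which works with FOXM1 on mitotic promoters, was at 109% of its control, with FOXM1 at 25.3%. Its values were 11.44 and 11.36 in TE-1-siFOXM1 cells and 11.37 and 11.18 in TE-1-SCR cells. The groups overlapped narrowly, with SCR replicate 1 above siFOXM1 replicate 2. The difference was 0.12 (standard error 0.15, 95% interval -0.26 to 0.51), with 0.07 within the replicates numbered 1 and 0.18 within those numbered 2. LIN54 was at 7.94 and 7.57 after silencing and at 7.86 and 7.69 in the control. The silenced pair enclosed the control pair, and the difference was -0.021 (-0.50 to 0.46), the smallest of the members, with 0.08 and -0.13 within the replicates numbered 1 and 2.

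The E2F motif searched on both strands was TTNNCGN, with C or G at each N. It was counted in windows of 250 bases before and 50 after each start in RefSeq. Windows were given for 8 members, all but E2F8 and MYBL1, with 2 starts each for E2F3 and LIN54. The window given for RB1 starts 172699 bases inside the gene, so it is not the promoter at the first base of the gene. It held 0 matches to the E2F motif, and RB1 was left out of the counts once its position had been seen. The limit was set at 10000 bases inside the gene. The 2 starts of LIN54 lie 2118 and 2107 bases inside it and were kept. A match was found for all of the other 7, against 23.7% of 35116 windows and 37.3% of the windows with a GC content at or above the median of 58.7%. A member counted if any of its windows held a match, while these shares are of single windows. The windows of these 7 members ranged from 58.3% to 77.3% GC. The CHR element (TTTGAA or TTCGAA), the kind of site that LIN54 contacts, was found for 2 members, E2F3 and LIN54, against 16.4% of all windows and 6.59% of those with a GC content at or above the median. The forkhead letters TAAACA were found for 0 of 7, against 12.3% and 4.07%. The paper gives the motif as RYAAAYA, with A or G at R and C or T at Y, and its other forms were not searched. No base was shared by an E2F match and a CHR match. A match describes the letters alone, and which start TE-1 cells use was not measured.

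The replicates of a group differed by more than the groups did for most members. The gap of replicate 1 minus replicate 2 was averaged over the groups with its sign kept. For 7 of the 9 members (77.8%) this average exceeded the difference between the groups in size, against 62.9% of all genes. Gaps of opposite sign, as in RB1 and RBL1, partly cancel in it. In 6 members, E2F1, E2F2, E2F3, E2F8, MYBL2 and LIN54, replicate 1 was above replicate 2 in both groups, as it was in 53.3% of all genes. E2F7 was the only member with replicate 2 above replicate 1 in both groups, with gaps of -0.34 in TE-1-siFOXM1 and -0.48 in TE-1-SCR cells, a pattern found in 15.9% of all genes. RB1 and RBL1 had gaps of -0.40 each in TE-1-SCR cells and of 0.09 and 0.04 in TE-1-siFOXM1 cells. The median gap of the members was 0.14, that of all genes was 0.10, and that of 33 target genes of the G2 phase and mitosis was 0.47, of which 31 had replicate 1 above replicate 2 in both groups. Each group held 1 array of each number, so a gap of equal size in both groups cancels in the difference of the means. What gaps of unequal size add to the members' differences was not tested.

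**Figure D4:**
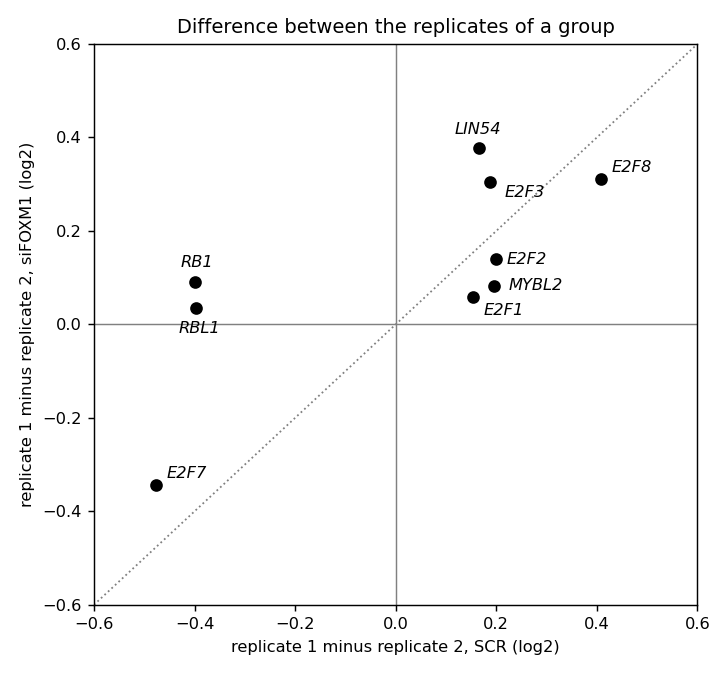
Replicate 1 minus replicate 2 (log2) in SCR cells (horizontal axis) and in siFOXM1 cells (vertical axis), 1 point per member. E2F7 is the only point below 0 on both axes, RB1 and RBL1 lie near -0.40 on the SCR axis, and the other 6 members are above 0 on both axes.

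Further genes of the RB-E2F family and of the MuvB complex did not reach 1.5-fold either. Of 12 such genes, 8 were measured, 0 were 1.5-fold apart (background 1.01%) and 0 passed limma, adjusted or with an unadjusted p under 0.05. Their median was 0.05, and it was 0.25 or 0.14 without SCR replicate 1 or siFOXM1 replicate 2 and -0.083 or -0.032 without SCR replicate 2 or siFOXM1 replicate 1. E2F4 and E2F5, the E2F factors that work mainly as repressors with pocket proteins, had differences of 0.04 and -0.14, and E2F6, a repressor that does not bind pocket proteins, had one of 0.04. The dimerization partner TFDP2 was at 11.03 and 11.02 in TE-1-siFOXM1 cells and at 10.86 and 10.96 in TE-1-SCR cells, a difference of 0.12 without overlap. Its relative TFDP3 was at 5.72 and 6.03 against 5.51 and 5.65, a difference of 0.30 without overlap, at a level below the median of all probe sets. Of the 8 genes, 2 thus lay apart and above their controls and 0 apart and below, against 13.5% and 13.8% of all genes. The MuvB subunits LIN9 and RBBP4, of which RBBP4 binds histones, had differences of -0.04 and 0.21. The founding MYB gene had one of 0.06, and the groups overlapped in all 3 of these genes. E2F6, MYB and RBBP4 also lay below the median level of all probe sets, and 4 of the 8 genes lay at or above it. Among the genes at or above it alone, the median of the list was -0.0006. Rows shared with another gene symbol kept TFDP1, RBL2 and LIN37 out of the comparison, and LIN52 was not analysed here.

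The kinases that phosphorylate pocket proteins, and the inhibitors of these kinases, were measured with 13 of 15 genes. None was 1.5-fold apart and none passed limma after adjustment, while 1 had an unadjusted p under 0.05, against 1.83% of all genes. This was CDKN1A, which encodes the kinase inhibitor p21, at 9.45 and 9.71 in TE-1-siFOXM1 cells and at 9.99 and 10.20 in TE-1-SCR cells (difference -0.51, standard error 0.17, limma's adjusted p = 1, unadjusted p = 0.0301). CDK6, a kinase of the pocket proteins, had the highest difference, 0.38, with 10.82 and 10.71 against 10.19 and 10.59. SCR replicate 1 was its low value, and its difference was 0.64 within the replicates numbered 1 and 0.12 within those numbered 2. The groups of both genes were apart, CDKN1A below its control and CDK6 above it. Of the 13 genes, 1 lay apart and above its control and 3 apart and below, against 13.5% and 13.8% of all genes. The median of the list was -0.025, and it was 0.10 or 0.026 without SCR replicate 1 or siFOXM1 replicate 2 and -0.11 or -0.053 without SCR replicate 2 or siFOXM1 replicate 1. At least 1 gene was 1.5-fold lower or more when SCR replicate 1, SCR replicate 2 or siFOXM1 replicate 2 was left out. The share of all genes past 1.5-fold was not counted with an array left out.

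Of the transcripts that the E2F factors drive at the G1/S transition, 29 of 35 listed genes were measured. None was 1.5-fold apart (1.01% of all genes) and none passed limma after adjustment. None had an unadjusted p under 0.05 in limma, against 1.83% of all genes. Above their control were 16 and below it 13, against 51.0% and 49.0% of all genes. The median of the list was 0.028, beside 0.0033 over all genes. The median was 0.13 or 0.11 when SCR replicate 1 or siFOXM1 replicate 2 was left out, and -0.076 or -0.021 when SCR replicate 2 or siFOXM1 replicate 1 was. The lowest was EZH2, the methyltransferase of Polycomb repressive complex 2, with 10.02 and 9.85 against 10.29 and 10.13 (difference -0.27, standard error 0.15). The EZH2 groups were apart, and the difference was -0.28 within the replicates numbered 2. Of the 29 genes, 4 lay apart and above their controls and 3 apart and below, against 13.5% and 13.8% of all genes. The highest was the repair gene BRCA1, with 7.94 and 8.07 against 7.45 and 7.99, a difference of 0.28 with SCR replicate 1 as the low value. The groups of BRCA1 overlapped.

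Of 38 listed targets of MYBL2-MuvB and FOXM1 in the G2 phase and mitosis, 33 were measured, 1 was at least 1.5-fold lower (0.45% of all genes) and none was higher (0.562% of all genes). The lower gene was CDKN3, a phosphatase of cyclin-dependent kinases, at 8.85 and 8.68 in TE-1-siFOXM1 cells and at 10.42 and 9.09 in TE-1-SCR cells (difference -0.99, standard error 0.45, limma's adjusted p = 1). Its highest array was SCR replicate 1, and its difference within the replicates numbered 2 was -0.41. BIRC5, which encodes the mitotic protein survivin, was the highest with a difference of 0.22 and overlapping groups. Of the 33 genes, 0 lay apart and above their controls and 1, CDKN3, lay apart and below, against 13.5% and 13.8% of all genes. The median of the 33 genes was 0.013. When SCR replicate 1 or siFOXM1 replicate 2 was left out it was 0.24 or 0.28, and when SCR replicate 2 or siFOXM1 replicate 1 was left out it was -0.30 or -0.27. Leaving out 1 array brings the gap between replicates 1 and 2 into the comparison. Omission of SCR replicate 1 left only higher genes past 1.5-fold. Omission of SCR replicate 2 or of siFOXM1 replicate 1 left only lower ones. Both kinds were present when siFOXM1 replicate 2 was omitted. The share of all genes past 1.5-fold was not counted with an array left out, so no excess can be read from this.

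**Figure D5:**
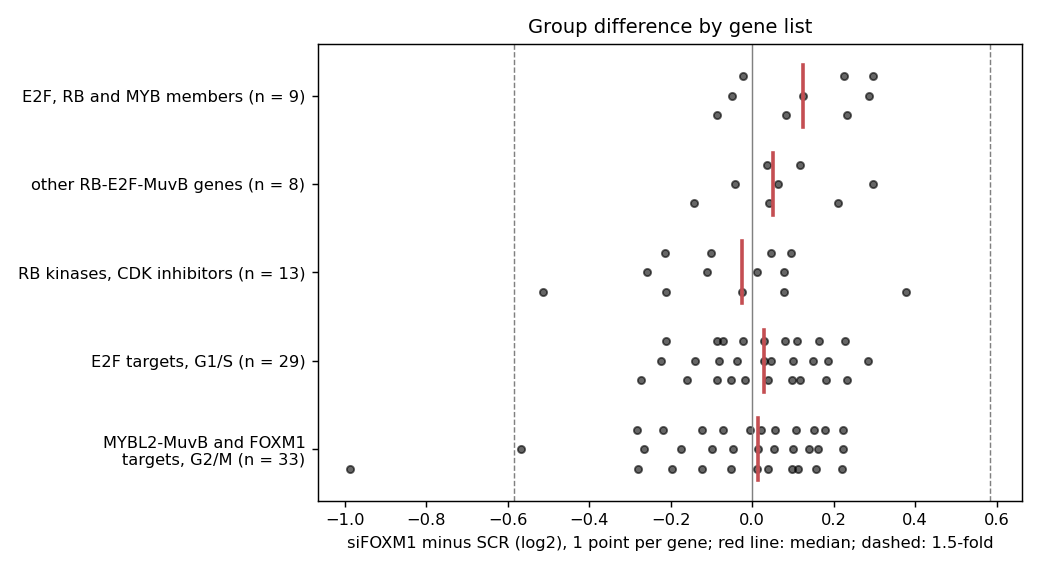
Difference siFOXM1 minus SCR (log2) of each measured gene in the members and 4 lists, with the median of each list as a red line and a 1.5-fold change as dashed lines. The medians of the members and of these lists lie between -0.025 and 0.12, and CDKN3 at -0.99 is the only point past a dashed line.

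Genes with profiles most like those of MYBL2 and E2F1 were sought by distance. Among 7504 other genes at or above the median level, those with the profile over the 4 arrays nearest to MYBL2 were FKBP2, PYM1 and KAT7, at distances of 0.010, 0.011 and 0.021 log2 units after each gene's mean was subtracted. Those nearest to E2F1 were SLC6A6, DDA1 and HDAC4, at 0.0058, 0.012 and 0.015. These distances describe 4 arrays, and all 6 genes differed between the groups by 0.13 or less on the log2 scale.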

How the data were processed

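TE-1 cells transfected with siRNA against FOXM1 or scrambled siRNA were measured on 4 arrays, 2 in each group. The authors processed the arrays with RMA in Affymetrix Expression Console and deposited the log2 values of 22011 probe sets on each array. The submitters' processing notes name the build hg18, and versions are not given in the sources used here. RMA equalizes the distributions of arrays normalized together, so a shift common to most genes would not be seen. The sample titles gave the group and the replicate number.

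The platform's annotation gave the gene names. Of the probe sets, 14432 carried 1 symbol and gave 14232 genes, 2408 carried several symbols and 5171 none, and a gene took its row with the highest mean. Symbols of 14208 genes matched a table of GRCh38.p14. Every probe set was fitted with limma (version 3.58.1, R 4.3.3) without the replicate number, with p-values adjusted by Benjamini-Hochberg across the whole table, and the fold criterion of 1.5 of the methods was applied to the log2 means. The test had 4.87 degrees of freedom. The calculation was tested on simulated data. The number of arrays limits the precision.

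Members and the 6 lists were chosen with earlier results of these data known. Named genes are FOXM1, the members, the measured genes of the RB-E2F family list, the largest increase and decrease in each other list described, and the 3 genes nearest to MYBL2 and E2F1 in profile. KRT14, CDH1 and COL1A1 fall outside this rule and were named after their values had been seen. Alternatives were the replicate block, median centring, quantile normalization, robust estimation with a trend on intensity, a filter at the median level, averaging of probe sets per gene, omission of each array, a 2-fold criterion and a fold from linear means. Where 1 array remained in a group, its spread was taken from the other group. The differences within a replicate number were added after the data had been seen. Promoter sequences came from RefSeq (GRCh38.p14).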

Additional observations from a re-analysis of the deposited data

How the results depend on the processing

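With each alternative of scaling, filter and variance model, 0 of the 9 members passed an adjusted p of 0.05 or were 1.5-fold apart, the 2-fold criterion and the fold from linear means gave 0 as well, and no member changed sign. Median centring and quantile normalization gave a median of the members of 0.12 and 0.11. E2F2 and RB1 could not be tested after the filter at the median level, since they lie below it. With the replicate block, FOXM1 kept its difference of -1.98 with an adjusted p of 0.665, and 0 of 22011 probe sets passed an adjusted p of 0.05, while 1576 had an unadjusted p under 0.05 (680 without the block). The deviations of same-numbered arrays from their group means correlated at 0.336 across probe sets, but the labels do not say that a number marks a shared day or batch.

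Leaving out each array in turn gave differences from -2.38 to -1.58 for FOXM1 and 0 members past either threshold. The median of the members then ran from 0.027 to 0.17. Without SCR replicate 2 it was 0.027, below the 0.12 of all arrays by more than the spread between replicates. With the other omissions it stayed within that spread. The differences of E2F1 (-0.13 to 0.028), E2F2 (-0.19 to 0.013), E2F3 (-0.068 to 0.24), E2F7 (-0.0066 to 0.47) and LIN54 (-0.21 to 0.17) crossed 0, while those of E2F8 (0.082 to 0.49), RB1 (0.026 to 0.43), RBL1 (0.098 to 0.49) and MYBL2 (0.027 to 0.22) did not. Within the replicates numbered 2, the median of the members was 0.026, again lower by more than the spread between replicates. RB1 had a difference of -0.019 there, and within those numbered 1, LIN54 had one of 0.084. When an array was left out, 7 list counts lay above and 1 below their values with all arrays by over 1.5 times. The same was not counted over all genes. By more than the spread between replicates, 4 list medians lay above and 4 below. The spread is that of a list's median level on the arrays of a group. These medians were of RB kinases and CDK inhibitors and of the squamous and non-epithelial markers. The G2 and mitosis list, with medians from -0.30 to 0.28, stayed within its own spread. What caused these shifts was not tested. With 2 arrays in each group, the standard errors of 0.14 to 0.23 limit what the difference of a member can show.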
